A study of Rattus norvegicus with 18 samples.

Results

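The comparison set 3 arrays of NRK-52E cells exposed to aristolochic acid (AA) for 6 h against 3 arrays of cells that received the solvent for 6 h, and it used 6 of the 18 arrays of the series. NRK-52E is an established epithelial line from normal kidney of an Osborne-Mendel rat, described by the labels as proximal tubular. Both groups were confluent cultures in medium with 10% fetal calf serum and both held 0.1% DMSO; the treated group also held 1.65 µM AA, a dose that the labels chose as inhibiting the cells by 10% at 72 h. The other 12 arrays carried the same treatment and control at 24 h and 72 h, 3 arrays each. The members were the 6 arrays named by treatment and hour in their titles, and 14217 genes were represented on them by 1 probe set each, of which 9015 were tested. The labels call the 3 arrays of a group biological replicates and say that several studies were run at each time. They do not say which arrays came from which study, so the p-values reflect only how far arrays scatter, which may be technical. That scatter was pooled for each gene over all 18 arrays and not taken from the 6 h arrays alone. The median SD between replicates was 0.14 in AA 6 h and 0.12 in DMSO 6 h. It was 0.09 and 0.12 for AA and DMSO at 24 h, and 0.13 and 0.08 at 72 h.

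Aristolochic acid is a nitrophenanthrene toxin of Aristolochia plants. Reductases such as NQO1, and cytochrome P450 enzymes with their reductase POR, reduce its nitro group, and the product binds the adenines of DNA as a bulky adduct. Such adducts stall elongating RNA polymerase II, which recruits transcription-coupled repair, and damaged DNA stabilises p53, the transcription factor that drives Cdkn1a, Mdm2 and other stress genes. In the kidney the proximal tubule cell is the best known target.

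The tubule label was checked first against marker genes. Of 17 proximal tubule markers on the array, 4 had a mean of log2 4 or more over all 18 arrays (Aqp1, Ggt1, Slc7a9 and Gatm). Aqp1 reached it through the later arrays and lay at the floor at 6 h, with means of 2.07 in AA and 2.08 in DMSO. The defining Lrp2, Cubn, Slc34a1 and Hnf4a lay near the floor of the scale, as did Cdh1 and Epcam of the general epithelial list. Of 11 mesenchymal markers 9 reached that mean, among them Vim and Cdh2, against 6 of 19 general epithelial, 4 of 10 fibroblast, 2 of 9 endothelial, 1 of 9 immune and 0 of 13 loop, distal and collecting duct markers. At 6 h, 2 proximal tubule markers rose, Ggt1 by 1.27 and Slc7a9 by 0.76, and 0 fell. In the lists of mesenchymal, epithelial, fibroblast, endothelial and immune markers 1, 2, 0, 0 and 1 members rose, and 0 fell in any of them. In a bulk extract fewer cells of a type and less RNA per cell cannot be told apart.

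Treatment lay along the main axis of difference among the 6 arrays, and replicate 3 of each group lay farthest out on it. The first principal component held 53.6% of the variance and placed the AA arrays of replicates 1, 2 and 3 at 12.7, 17.3 and 42.1 and the DMSO arrays at -17.96, -22.9 and -31.2. The groups did not overlap, with an exact permutation p of 0.1, the smallest that 3 arrays against 3 allow. Of the genes that passed the test, 80.1% had their most extreme AA value on AA replicate 3 and 51.1% their most extreme DMSO value on DMSO replicate 3. The array medians, 4.06, 4.03 and 4.08 with AA and 4.16, 4.11 and 4.14 with DMSO, also stood apart (exact permutation p = 0.1), while the 3' minus 5' differences of the beta-actin, GAPDH and hexokinase controls gave exact permutation p values of 1.0, 0.5 and 0.4. The part of these array differences in the gene results was not tested; counts without AA replicate 3 are therefore given beside the counts with it.

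The transcriptome was shifted in both directions, mostly by little. At an adjusted p under 0.05, 1091 genes rose in AA (12.1% of those tested) and 1120 fell (12.4%), and the median size of a called change was 0.43 on the log2 scale. At least 2-fold changes were found in 48 rises and 56 falls. Of all tested genes 36.4% had AA arrays that did not overlap the DMSO arrays. Centring each array on its median turned the split into 1652 rises and 642 falls, and the median change of all genes moved from 0.01 to 0.08. Those medians were taken over all probe sets and lay close to log2 4, near the floor. Quantile normalization gave 1277 rises and 1009 falls. Which setting suits the expressed genes better was not tested. Without AA replicate 3, 422 genes rose (4.68%) and 478 fell (5.3%). Without DMSO replicate 2 the counts were 715 and 699, and without DMSO replicate 3 they were 687 and 806. Calls that held with each of the 6 arrays left out in turn numbered 370 rises (4.1%) and 401 falls (4.45%); genes of this kind are described below as holding without any 1 array. All 2211 called genes kept their sign without AA replicate 3. In 1980 of them the groups did not overlap, so leaving out an array could not turn the sign.

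**Figure D1:**
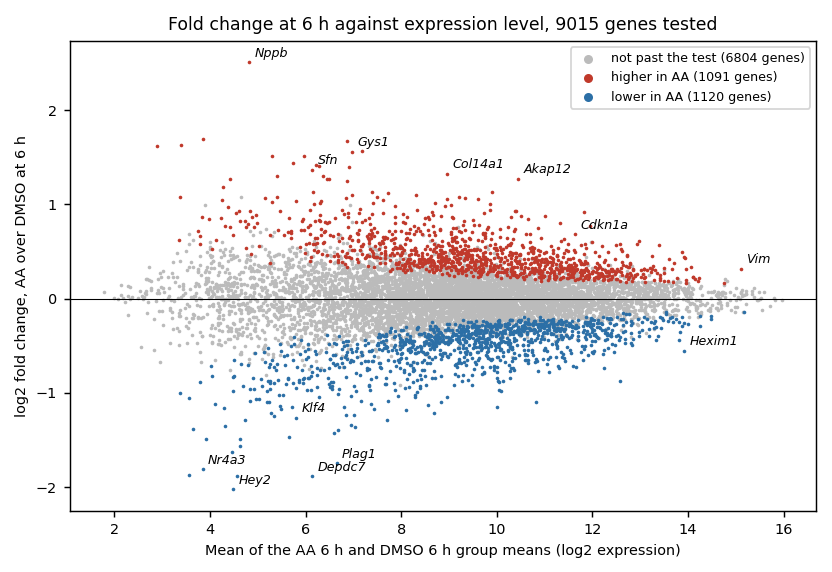
Each point is 1 of the 9015 genes tested, with the mean of the AA 6 h and DMSO 6 h group means on the x axis (log2 expression) and the log2 fold change of AA over DMSO on the y axis; red and blue mark the 1091 rises and 1120 falls past the test. Most coloured points lie within 1 log2 unit of 0, and the largest changes are of weakly expressed genes such as Nppb and Hey2.

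The damage marker Cdkn1a, which encodes the cyclin-dependent kinase inhibitor p21, was already raised at 6 h. It read 11.83, 12.09 and 12 with AA and 11.30, 11.35 and 11.23 with DMSO. The lowest AA array lay above every DMSO array, and the log2 fold change was 0.68 ± 0.09 (SE; adjusted p = 0.000182, n = 3 per group, as for every value below). It lay between 0.62 and 0.75 with any 1 array left out. A second probe set for the gene gave 0.47 and missed the test (adjusted p = 0.256). Gtse1, whose product binds p53 and microtubules, read 9.99, 10.09 and 10.38 against 9.37, 9.33 and 9.54, again without overlap, and rose by 0.74 ± 0.13 (adjusted p = 0.00104). Sfn, the 14-3-3 sigma protein that holds cell cycle kinases in the cytoplasm, read 6.62, 6.47 and 7.39 against 5.74, 5.59 and 5.04. Its groups were apart and it rose by 1.37 ± 0.23 (adjusted p = 0.000874). Gtse1 was chosen after its values were seen.

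The rest of the p53 programme was not raised as a block. Of 26 tested p53 targets 3 rose and 5 fell, 11.5% and 19.2%, beside 12.1% and 12.4% of all genes, and 2 rose and 2 fell without AA replicate 3. After centring 5 rose and 3 fell, so the direction of the list's calls depended on the setting. Their median change was 0.09 against 0.01 over all genes. Mdm2, the ubiquitin ligase of p53, read 11.85, 11.69 and 11.85 with AA and 11.51, 11.51 and 11.65 with DMSO, a difference of 0.24 ± 0.12 (adjusted p = 0.137), although its arrays did not overlap. Ccng1, Phlda3 and Aen gave 0.12, 0.31 and 0.26 with adjusted p values of 0.2, 0.0589 and 0.192, and Sesn2 gave -0.12 (0.51). Gdf15 stayed at the floor on all 6 arrays, between 2.34 and 2.40. Epha2, a receptor tyrosine kinase, rose by 0.70 ± 0.15 (adjusted p = 0.00313), and Tp53inp1, a stress-induced nuclear protein, fell by 0.72 ± 0.23 (adjusted p = 0.0265), a call lost without AA replicate 2, AA replicate 3 or DMSO replicate 3 (adjusted p up to 0.173). Without DMSO replicate 3 its log2 fold change was -0.39. Of the 5 falls, those of Xpc and Btg1 held without any 1 array.

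The promoter windows of Cdkn1a and of 2 of the largest rises, Nppb and Tgif2, are shown because they hold letters that are known binding motifs of the p53 and TEAD transcription factors. They run from 250 bases before to 50 after the annotated start, 5' to 3', from RefSeq on assembly GRCr8. Capitals mark the p53 decamer motif in Cdkn1a (chr20:7150682-7150981, plus strand, first capital at -201 from the start) and the TEAD motif GGAATG, or its reverse complement, in Nppb (chr5:163699758-163700057, plus strand, -131) and Tgif2 (chr3:165793239-165793538, plus strand, -166).
Cdkn1a: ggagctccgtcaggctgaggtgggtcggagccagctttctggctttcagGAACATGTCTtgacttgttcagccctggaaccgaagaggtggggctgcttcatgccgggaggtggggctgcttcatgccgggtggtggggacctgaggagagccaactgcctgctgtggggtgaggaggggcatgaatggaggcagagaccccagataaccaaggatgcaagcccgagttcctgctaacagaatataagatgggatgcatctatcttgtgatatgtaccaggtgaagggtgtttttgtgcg
Nppb: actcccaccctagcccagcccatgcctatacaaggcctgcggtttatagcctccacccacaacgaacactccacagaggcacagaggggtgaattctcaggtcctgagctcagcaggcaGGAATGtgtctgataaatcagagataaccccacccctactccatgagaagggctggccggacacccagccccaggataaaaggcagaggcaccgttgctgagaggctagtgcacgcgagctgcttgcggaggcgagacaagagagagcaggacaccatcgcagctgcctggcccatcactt
Tgif2: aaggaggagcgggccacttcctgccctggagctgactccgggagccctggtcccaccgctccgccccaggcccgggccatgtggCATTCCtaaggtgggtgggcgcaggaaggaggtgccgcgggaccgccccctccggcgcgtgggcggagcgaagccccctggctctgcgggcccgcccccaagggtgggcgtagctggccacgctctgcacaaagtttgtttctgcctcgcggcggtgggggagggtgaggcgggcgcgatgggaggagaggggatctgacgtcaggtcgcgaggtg
Over all rises and all falls the motif shares lay near those of all promoters, and they spread more among the few changes of at least 2-fold. A p53 decamer motif was found on either strand in 6.2% of the 7623 tested genes with a window, in 5.9% of the rises and in 6.1% of the falls, and among changes of at least 2-fold in 4.9% of 41 rises and 11.6% of 43 falls. The TEAD letters were found in 10.8% of all, 11.6% of the rises and 10.2% of the falls, and in 9 of the 41 rises of at least 2-fold (22%) and 6 of the 43 falls (14.0%). The AP-1 motif TGANTCA was found in 4.4% of all, 5.7% of the rises and 3.0% of the falls, and in 9.8% and 4.7% of those of at least 2-fold. The GC box GGGCGG was found in 66.0%, 65.7% and 70.4%. These shares describe letters in a short window and are not binding.

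Genes for the uptake and activation of AA were called in both directions at close to the share of all genes. Of 14 tested 2 rose and 2 fell (14.3% each, beside 12.1% and 12.4% of all genes), and 2 rose and 0 fell without AA replicate 3. Nqo1 read 12.35, 12.58 and 12.74 with AA and 12.98, 12.80 and 12.59 with DMSO, with overlapping groups and a difference of -0.23 ± 0.16 (adjusted p = 0.306). Por did not differ past the test either (adjusted p = 0.986), and Cyp1a1 lay at the floor. Ptgs2, a prostaglandin synthase whose peroxidase can also reduce AA, rose by 0.92 ± 0.20 (adjusted p = 0.00417) and held without any 1 array. Cyp1b1, a P450 of the aryl hydrocarbon receptor programme, rose by 0.72 ± 0.21 (adjusted p = 0.0205), a call lost without AA replicate 2 and without either of DMSO replicates 2 and 3 (adjusted p up to 0.0783). Xdh, xanthine dehydrogenase, fell by 0.39 (adjusted p = 0.00776), and lost its call without AA replicate 3 (log2 fold change -0.25, adjusted p = 0.0533).

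Repair genes were called in both directions. Rev3l, the catalytic subunit of translesion polymerase zeta, read 9.42, 9.33 and 9.22 with AA and 9.96, 10.22 and 9.95 with DMSO. No AA array reached a DMSO array, and the fall was 0.73 ± 0.11 (log2 fold change -0.73, adjusted p = 0.000317). Ercc6, the CSB protein that recognises stalled polymerase, read 7.88, 7.81 and 7.83 against 8.32, 8.23 and 8.35 and fell by 0.46 ± 0.11 (adjusted p = 0.00578). Ercc1, part of the excision nuclease that cuts beside an adduct, went the other way by 0.51 ± 0.12 (adjusted p = 0.00551). Over the 33 tested genes of nucleotide excision and translesion repair 2 rose and 5 fell (6.06% and 15.2%, beside 12.1% and 12.4% of all genes), 1 rose and 3 fell without AA replicate 3, and 3 rose and 4 fell after centring. The list's median was -0.01. The falls of Xpc, Ercc6 and Rev3l held without any 1 array, as did the rise of Ercc1. Bard1, the partner of Brca1, fell by 0.86 ± 0.18 (adjusted p = 0.00287). It was the only fall in the recombination and checkpoint list, where 2 of 29 rose and 1 fell (6.9% and 3.45%). The list's median was 0.11, with 0 rises and 1 fall without AA replicate 3 and 5 and 1 after centring. The rises were Rad51c (0.69) and Rad50 (0.38), and both calls were lost without AA replicate 3. Rnf168, a ubiquitin ligase that marks broken DNA, fell by 0.84 ± 0.17 (adjusted p = 0.00209).

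The strong rises included secreted, scaffold and signalling genes. Nppb, which encodes the B-type natriuretic peptide, read 5.61, 5.49 and 7.13 with AA and 3.28, 4.33 and 3.09 with DMSO. Every AA array was above every DMSO array, with AA replicate 3 well above the others, and the rise was 2.51 ± 0.35 (adjusted p = 0.000238). Akap12, a scaffold for protein kinases A and C, read 10.68, 10.97 and 11.58 against 9.95, 9.77 and 9.69. It rose by 1.27 ± 0.15 (adjusted p = 0.000163), and its second probe set rose by 1.15 (adjusted p = 0.0020). Tgif2, a homeobox repressor that binds Smad proteins, read 6.87, 6.78 and 7.40 against 5.74, 5.81 and 5.57 and rose by 1.31 ± 0.17 (adjusted p = 0.000182). Col14a1, a collagen that sits on fibrils, read 9.30, 9.30 and 10.27 against 8.57, 8.33 and 7.97. Its groups were apart, it rose by 1.33 ± 0.19 (adjusted p = 0.000265), and its second probe set by 1.06.

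**Figure D2:**
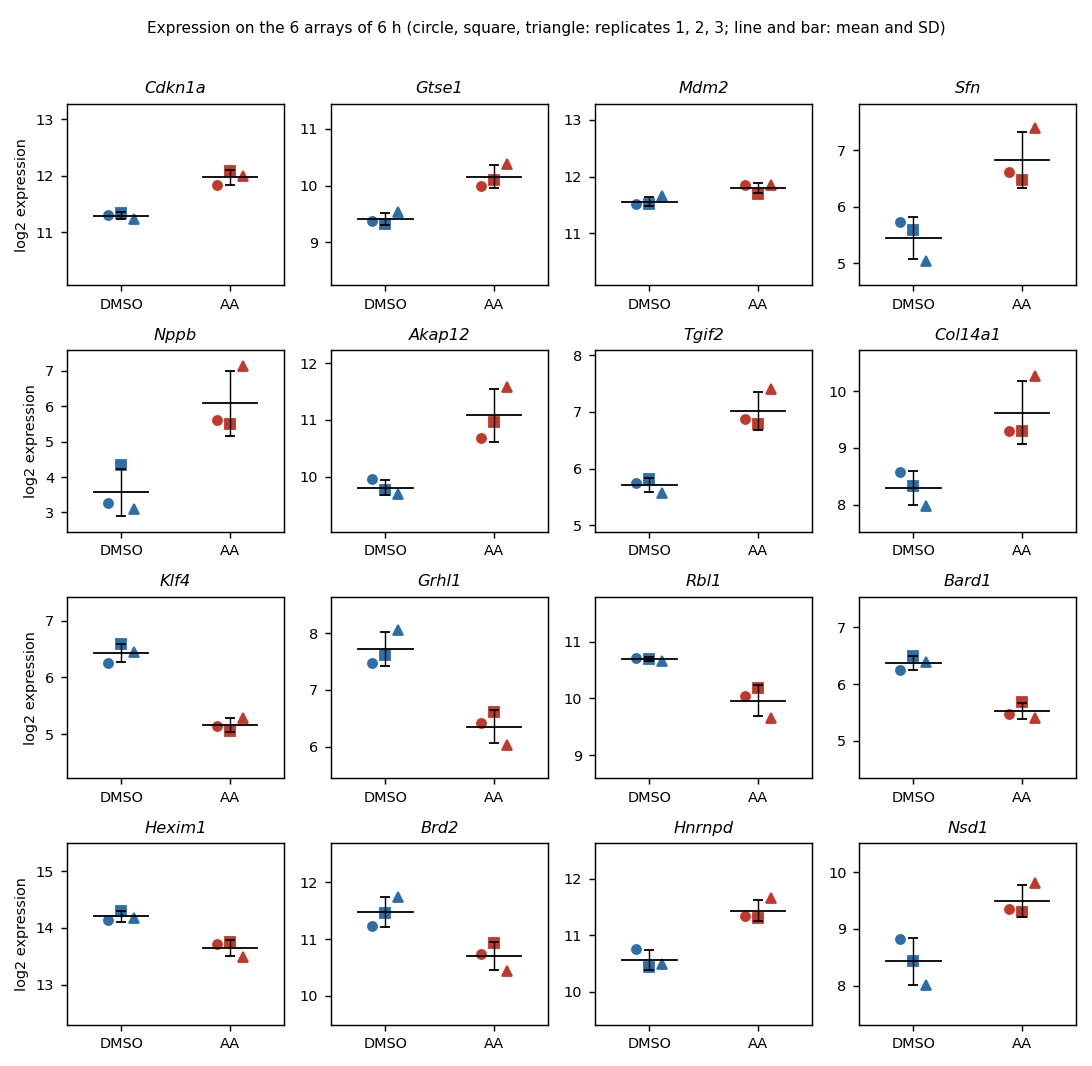
Log2 expression of 16 genes on the 3 DMSO (blue) and 3 AA (red) arrays of 6 h; circles, squares and triangles are replicates 1, 2 and 3, and the line and bar are the mean and SD. In each panel the red and blue points do not overlap, including Mdm2, which missed the test, and AA replicate 3 is often the red point farthest from the blue ones.

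Growth factor signalling genes included feedback regulators that moved apart. Dusp6, the phosphatase that ERK induces against itself, read 9.87, 10.73 and 10.78 with AA and 9.49, 9.44 and 9.06 with DMSO. The AA arrays were higher without overlap, the rise was 1.13 ± 0.18 (adjusted p = 0.000514), and a second probe set gave 1.22. Etv5, an ETS factor downstream of ERK, fell by 0.84 ± 0.21 (adjusted p = 0.00889). Of the 16 tested genes of ERK feedback and EGFR ligands 6 rose and 1 fell (37.5% and 6.25%, beside 12.1% and 12.4% of all genes), or 3 and 1 without AA replicate 3, and the median was 0.26. Fosl1, an AP-1 subunit, was at the floor on AA replicate 1 and on all DMSO arrays and read 4.74 and 4.26 on the other AA arrays, and its call was lost without AA replicate 2 or 3 (adjusted p up to 0.0964). The immediate early genes Fos, Jun, Egr1, Myc and Atf3 missed the test, with -0.43, 0.09, 0.05, 0.36 and 0.43, although a second Jun probe set gave 0.42 and passed (adjusted p = 0.0424). Junb rose by 0.44 ± 0.14 (adjusted p = 0.0253), a call lost without AA replicate 3 (log2 fold change 0.27) and without DMSO replicate 1 or 2. Of the 26 tested immediate early factors 4 rose and 3 fell, or 1 and 2 without AA replicate 3.

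Secreted factors gave 6 rises and 4 falls among 25 tested (24% and 16%, beside 12.1% and 12.4% of all genes), and 3 and 1 without AA replicate 3 (4.68% and 5.3% of all genes). Vegfb, a vascular endothelial growth factor, read 6.45, 6.55 and 7.03 with AA and 5.94, 5.83 and 5.24 with DMSO, with no overlap, and rose by 1.01 ± 0.17 (adjusted p = 0.000663). Edn1, the vasoconstrictor endothelin, rose by 0.98 ± 0.25 (adjusted p = 0.00973) but missed the test once AA replicate 3 or DMSO replicate 3 was dropped (adjusted p up to 0.0673). In the TGF-beta pathway 6 members rose and 6 fell of 26 (23.1% each). The counts were 2 and 2 without AA replicate 3, and 7 and 2 after centring. The median of the list was -0.01, and the only fall that held without any 1 array was the receptor gene Tgfbr1. The 3 TGF-beta ligands were among the rises, Tgfb3 by 0.63 ± 0.14 (adjusted p = 0.00412), Tgfb1 by 0.58 ± 0.18 (0.023) and Tgfb2 by 0.46 ± 0.12 (0.00888). Tgfb3 alone of the 3 held without any 1 array; the Tgfb1 call was lost without AA replicate 3 and without either of DMSO replicates 2 and 3 (adjusted p up to 0.133) and Tgfb2 without AA replicate 3 (0.055). Ccn2, a matricellular target of TGF-beta and YAP, was among the brightest genes at 15.08, 15.19 and 14.94 against 15.28, 15.24 and 15.10 and did not pass (-0.14, adjusted p = 0.0973).

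Genes of the actin cytoskeleton and of adhesion gave more rises than falls. Of 24 tested SRF and actin genes 7 rose and 0 fell (29.2% and 0.0%, beside 12.1% and 12.4% of all genes), 4 and 0 without AA replicate 3 (4.68% and 5.3% of all genes), with a median of 0.24. Filip1l, a filamin-binding protein, read 9.53, 9.83 and 9.87 with AA and 9.15, 8.61 and 8.24 with DMSO. It rose by 1.08 ± 0.16 (adjusted p = 0.000317) with no overlap between groups. Tpm2, a tropomyosin, and Cnn2, a calponin, rose by 0.56 ± 0.10 and 0.47 ± 0.08 (adjusted p = 0.00108 and 0.00103), while a dimmer Tpm2 probe set gave 0.00 (adjusted p = 0.991). Tns1, the tensin that ties integrins to actin, rose by 0.88 ± 0.16 (adjusted p = 0.00104), and a second probe set by 0.89; Src, a tyrosine kinase of focal adhesions, rose by 0.66 ± 0.13 (adjusted p = 0.00189). Of 34 integrin and focal adhesion genes 8 rose and 2 fell (23.5% and 5.88%), or 4 and 0 without AA replicate 3. Lama3, a laminin chain of epithelial basement membranes, rose by 1.1 ± 0.26 (adjusted p = 0.00581). Its list of collagens, laminins and matrix leaned the other way, with 2 rises and 6 falls of 38 (5.26% and 15.8%). The counts were 2 and 3 without AA replicate 3, and 2 and 3 after centring. Among the falls, Nid2 (-0.42) and Col4a5 (-0.36) held without any 1 array.

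The large falls included several transcription factors beside genes of other kinds. Depdc7 (-1.89) and the arginase Arg2 (-1.87) fell further than most of those described next. Klf4, a zinc finger factor of epithelial differentiation, read 5.15, 5.05 and 5.29 with AA and 6.26, 6.59 and 6.44 with DMSO. The groups lay far apart relative to their spread, and the fall was 1.27 ± 0.15 (log2 fold change -1.27, adjusted p = 0.000163). Grhl1, a grainyhead factor of epithelia, read 6.41, 6.61 and 6.03 against 7.47, 7.62 and 8.05 and fell by 1.37 ± 0.20 (adjusted p = 0.000278). A second Grhl1 probe set fell by 0.82 (adjusted p = 0.0192). The Notch effector Hey2 read 3.12, 4.39 and 2.90 with AA, near the floor, and 5.25, 5.83 and 5.39 with DMSO. The zinc finger factor Plag1 read 6.15, 6.12 and 5.06 against 7.42, 7.48 and 7.67, and the orphan receptor Nr4a3 2.79, 3.32 and 2.70 against 4.58, 5.10 and 4.58. In all of these genes no AA array overlapped a DMSO array, and each call held without any 1 array. Of 15 KLF and SP factors 3 fell and 1 rose, or 2 and 0 without AA replicate 3, with a median of -0.18.

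Some regulators of RNA polymerase II fell, while the share of their list that fell was near that of all genes. Hexim1, the inhibitor of the elongation kinase P-TEFb, read 13.71, 13.75 and 13.48 with AA and 14.13, 14.30 and 14.17 with DMSO, and this abundant transcript fell by 0.55 ± 0.07 (log2 fold change -0.55, adjusted p = 0.000163) without overlap. Ccnt2, a cyclin of P-TEFb, read 7.93, 8.05 and 7.95 against 8.59, 8.70 and 9.08 and fell by 0.81 ± 0.14 (adjusted p = 0.000712), while its second probe set gave -0.28 and missed the test. Med13 of the Mediator kinase module fell by 0.64 ± 0.12 (adjusted p = 0.00134), and Taf12 of TFIID by 0.55 ± 0.12 (adjusted p = 0.00362). Brd2, a bromodomain reader of acetylated histones, read 10.74, 10.93 and 10.43 against 11.23, 11.46 and 11.75 and fell by 0.78 ± 0.14 (adjusted p = 0.00102). Of 72 genes of RNA polymerase II and general transcription 4 rose and 10 fell (5.56% and 13.9%, beside 12.1% and 12.4% of all genes), 2 and 6 without AA replicate 3, and 6 and 6 after centring. The lean of this list to falls was thus absent after centring.

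Chromatin and splicing genes moved both ways, with a share of rises near that of all genes and a share of falls somewhat above it. Of 80 chromatin writers, erasers and remodelers 10 rose and 14 fell (12.5% and 17.5%, beside 12.1% and 12.4% of all genes). The counts were 6 and 6 without AA replicate 3, and 13 and 6 after centring. Nsd1, which methylates histone H3 at lysine 36, read 9.35, 9.30 and 9.81 with AA and 8.83, 8.44 and 8.01 with DMSO and rose by 1.06 ± 0.16 (adjusted p = 0.000318), but a second, dimmer probe set gave 0.06 (adjusted p = 0.840). The deacetylase Hdac8 and the demethylase Kdm6b rose by 0.72 ± 0.14 and 0.75 ± 0.14 (adjusted p = 0.00156 and 0.00131). Of 70 splicing factors and hnRNPs 7 rose and 13 fell (10.0% and 18.6%), 4 and 8 without AA replicate 3, and 12 and 9 after centring. Hnrnpd, which binds AU-rich elements in mRNA, read 11.34, 11.31 and 11.65 against 10.76, 10.44 and 10.49 and rose by 0.87 ± 0.12 (adjusted p = 0.000208). The splicing regulators Srsf10 and Tra2a fell by 0.76 ± 0.12 and 0.66 ± 0.12 (adjusted p = 0.00041 and 0.00116), and their arrays did not overlap. In mRNA decay 0 of 47 rose and 6 fell (0.0% and 12.8%), among them the deadenylation cofactor Btg1 (-0.40 ± 0.07, adjusted p = 0.00126). There were 3 falls without AA replicate 3, and 3 rises and 2 falls after centring.

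Cell cycle genes were also called in both directions. Rbl1, the pocket protein p107, read 10.05, 10.18 and 9.66 with AA and 10.72, 10.70 and 10.66 with DMSO and fell by 0.73 ± 0.13 (adjusted p = 0.00108). Cdk4, the G1 kinase that p21 binds, read 12.03, 12.10 and 12.30 against 11.67, 11.51 and 11.63 and rose by 0.54 ± 0.09 (adjusted p = 0.000547). Both held without any 1 array. Slbp, which processes histone mRNA in S phase, fell by 1.09 ± 0.25 (adjusted p = 0.00513). Among 62 tested genes of G1/S and replication 4 rose and 8 fell (6.45% and 12.9%, beside 12.1% and 12.4% of all genes), 1 and 2 without AA replicate 3 and 7 and 5 after centring, and among 67 genes of G2/M and mitosis 4 rose and 0 fell, 1 and 0 without it.

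Metabolic and protein quality genes rose in larger blocks, and in several of them most calls were lost without AA replicate 3. Glycolysis and hypoxia genes gave 20 rises and 1 fall of 39 tested (51.3% and 2.56%, beside 12.1% and 12.4% of all genes), and 11 and 0 without AA replicate 3, against 4.68% and 5.3% of all genes in that fit. Pfkfb1, which sets fructose 2,6-bisphosphate, read 7.26, 7.37 and 7.83 with AA and 6.34, 5.92 and 6.47 with DMSO and rose by 1.25 ± 0.18 (adjusted p = 0.000317). Fatty acid oxidation and PPAR targets gave 9 rises and 3 falls of 24, and 6 and 1 without AA replicate 3; Eci1, an isomerase of this pathway, rose by 0.65 ± 0.12 (adjusted p = 0.00129). Without that array oxidative phosphorylation went from 17 rises of 67 to 1, the proteasome from 16 of 43 to 2, mitochondrial ribosomal proteins from 17 of 72 to 4, tRNA synthetases from 7 of 22 to 0 and cholesterol synthesis from 6 of 24 to 1. In these 5 lists the median change without AA replicate 3 was still above that of all genes, between 0.10 and 0.17 against 0.00 (-0.004). Heat shock chaperones gave 8 rises and 2 falls of 26, and 5 and 2 without AA replicate 3, with Hspb1, a small heat shock protein, up by 0.39 ± 0.08 (adjusted p = 0.00209).

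**Figure D3:**
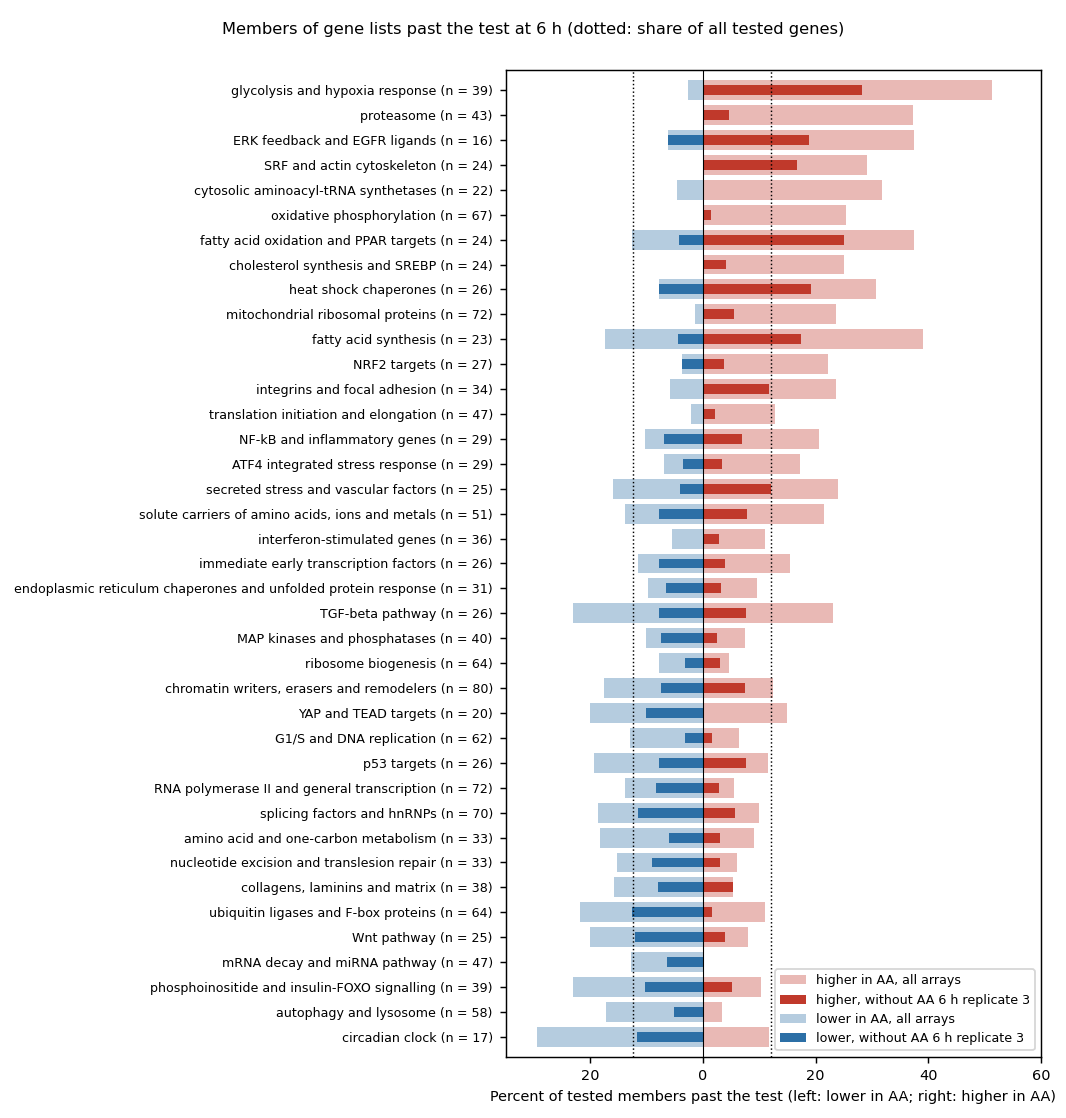
Percent of tested members past the test at 6 h for gene lists with 6 or more called members; bars to the right are higher and to the left lower in AA, pale bars use all arrays and dark bars leave out AA 6 h replicate 3. Dotted lines mark 12.1% and 12.4%, the shares of all tested genes with all arrays; the dark bars of glycolysis, fatty acid oxidation and heat shock genes stay long, and those of oxidative phosphorylation and the proteasome shrink almost to 0.

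Several turnover and signalling lists leaned downward with all arrays and shrank without AA replicate 3 or after centring. Ubiquitin ligases gave 7 rises and 14 falls of 64 (10.9% and 21.9%, beside 12.1% and 12.4% of all genes), 1 and 8 without AA replicate 3 and 9 and 9 after centring; Fbxo33, an F-box protein, fell by 0.71 ± 0.12 (adjusted p = 0.000846). Autophagy and lysosome genes gave 2 rises and 10 falls of 58, 0 and 3 without AA replicate 3 and 7 and 3 after centring. Mitf, a transcription factor of lysosomal and pigment genes, read 6.99, 6.90 and 6.68 with AA and 7.73, 7.83 and 7.93 with DMSO and fell by 0.97 ± 0.18 (adjusted p = 0.00149). Phosphoinositide and insulin-FOXO signalling gave 4 rises and 9 falls of 39, 2 and 4 without AA replicate 3 and 7 and 6 after centring; Tsc1, the inhibitor of mTORC1, fell by 0.53 ± 0.09 (adjusted p = 0.001). In the circadian list, with 2 rises and 5 falls of 17 (0 and 2 without AA replicate 3), the repressor Cry2 read 6.58, 6.28 and 6.38 against 7.04, 7.22 and 7.03 and fell by 0.68 ± 0.13 (adjusted p = 0.00141).

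The other stress lists gave 0 to 2 calls in each direction once AA replicate 3 was left out, when 4.68% and 5.3% of all genes were called. NRF2 targets gave 6 rises and 1 fall of 27 (22.2% and 3.7%, beside 12.1% and 12.4% of all genes), and 1 and 1 without AA replicate 3. Akr1b8, an aldo-keto reductase, rose by 0.84 ± 0.19 (adjusted p = 0.00412), Gclm, a subunit of the glutathione-synthesising ligase, fell by 0.47 ± 0.10 (adjusted p = 0.00261), and Hmox1 did not pass (-0.25, adjusted p = 0.512). ATF4 targets gave 5 rises and 2 falls of 29, and 1 and 1 without AA replicate 3. Endoplasmic reticulum chaperones gave 3 and 3 of 31, 1 and 2 without AA replicate 3; the co-chaperone Dnajb9 fell by 0.89 ± 0.17 (adjusted p = 0.00151). Interferon-stimulated genes gave 4 rises and 2 falls of 36, 1 and 0 without AA replicate 3, and the held rise was Dhx58, a cytoplasmic RNA sensor, at 0.93 ± 0.16 (adjusted p = 0.00087). Tnfaip3, the brake on NF-kB, rose by 0.87 ± 0.21 (adjusted p = 0.00647), with a log2 fold change of 0.53 without DMSO replicate 3. The kidney injury markers Havcr1 and Lcn2 lay near the floor in both groups, while 6 of the 11 on the array had a mean of log2 4 or more. Clu, Spp1, Timp1 and Anxa2 were bright, with AA means of 14.2, 14.6, 14.7 and 15.1, and missed the test. Cd44 gave 0.68 and missed it too (adjusted p = 0.0764). Of the 6 only Vim was called, and it rose. Vim, the mesenchymal filament gene, rose by 0.32 ± 0.07 (adjusted p = 0.00581).

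Few of the early calls were also calls at 24 h. At 24 h 188 genes passed the test (2.09%) and at 72 h 4257 (47.2%), and these comparisons share no arrays with the one at 6 h. Of the 1091 rises at 6 h, 19 also rose at 24 h (1.74%), beside 1.81% of all tested genes. Of the 1120 falls 10 also fell (0.893%), beside 0.277% of all. Those 19 made up 11.7% of the 163 rises at 24 h, near the 12.1% of all genes that rose at 6 h, and the 10 made up 40% of the 25 falls, beside 12.4%. The sign at 24 h matched that at 6 h in 73.7% of the rises and 77.2% of the falls, with median changes of 0.07 and -0.10. Across the 9015 genes the effects at 6 h correlated with those at 24 h at r = 0.31 and with those at 72 h at r = 0.07, as descriptions over genes that are not independent. At 72 h, 27.4% of all tested genes rose and 19.8% fell. Of the early rises 354 were then up (32.4%) and 197 down (18.1%), and of the early falls 213 were down (19.0%) and 260 up (23.2%).

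The difference between the effects at 24 h and 6 h was tested directly and passed in 219 genes (2.43%). That count was 458 without AA replicate 1, 96 without AA replicate 3, 330 without DMSO replicate 1, 32 without DMSO replicate 2 and 100 without DMSO replicate 3. Of the 1091 rises the effect was lower at 24 h in 82 and higher in 1, and of the 1120 falls it was higher at 24 h in 70 and lower in 0. This test uses the same 6 h arrays, so genes chosen for a large early change lean toward a smaller later one by that choice. Akap12 gave 0.17 at 24 h (difference -1.1 ± 0.21, adjusted p = 0.0194), Tgif2 -0.01 (difference -1.32, adjusted p = 0.0138), Hnrnpd 0.05 (-0.82, 0.0214) and Nppb 0.09 (-2.42, 0.0212). Klf4 gave -0.03 at 24 h (difference 1.24 ± 0.22, adjusted p = 0.0134), Rbl1 0.28 (1.01, 0.0138), Hexim1 -0.07 (0.48, 0.0212) and Brd2 0.04 (0.82, 0.0342). Nppb lay at the floor in both groups at 24 h (means of 2.65 with AA and 2.56 with DMSO), so its 24 h effect compares floor values. For some of the early falls the effect at 72 h was a rise. Klf4 was then up by 2.25 and Brd2 by 1.03 (adjusted p = 4.31e-10 and 4.56e-06).

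A set of 17 genes passed the test in the same direction at 6 h, 24 h and 72 h; it was chosen after the values were seen. The 10 risers were Cdkn1a, Gtse1, Mgst2, Chd2, Notch1, Pvt1, Map3k20, Cenpk, Ier3 and Ets2. Cdkn1a went from 0.68 to 1.12 and 3.71 and Gtse1 from 0.74 to 1.13 and 2.37. Mgst2, a microsomal glutathione transferase, stayed at 0.63, 0.84 and 0.60, and lost its call at 6 h without AA replicate 3 (adjusted p = 0.0746). The difference between 24 h and 6 h did not pass for Cdkn1a (adjusted p = 0.0716) or Gtse1 (0.241). The 7 fallers were Tbc1d4, Rnf180, Arhgap26, Sh3kbp1, Ank2, Pcca and Taf1b. Sh3kbp1, an adaptor of receptor endocytosis, read 5.50, 6.06 and 5.69 with AA and 6.26, 6.55 and 6.79 with DMSO at 6 h and went from -0.78 to -1.19 and -3.67. Tbc1d4, a Rab GTPase-activating protein of insulin-regulated transport, read 7.52, 7.83 and 7.21 against 8.55, 8.68 and 8.87 and gave -1.18, -0.80 and -2.41; both genes held at 6 h without any 1 array, and neither overlapped between groups. Ank2, an ankyrin of the membrane skeleton, gave -0.74, -1.06 and -3.81, with a call at 6 h lost without AA replicate 3 (-0.46, adjusted p = 0.0791). Of the 17, the calls of Cdkn1a, Gtse1, Pvt1, Ier3, Tbc1d4, Sh3kbp1 and Rnf180 at 6 h held without any 1 array. The other 10 were lost without AA replicate 3, and of these Cenpk, Chd2, Ets2, Notch1, Pcca and Taf1b also without at least 1 other array.

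**Figure D4:**
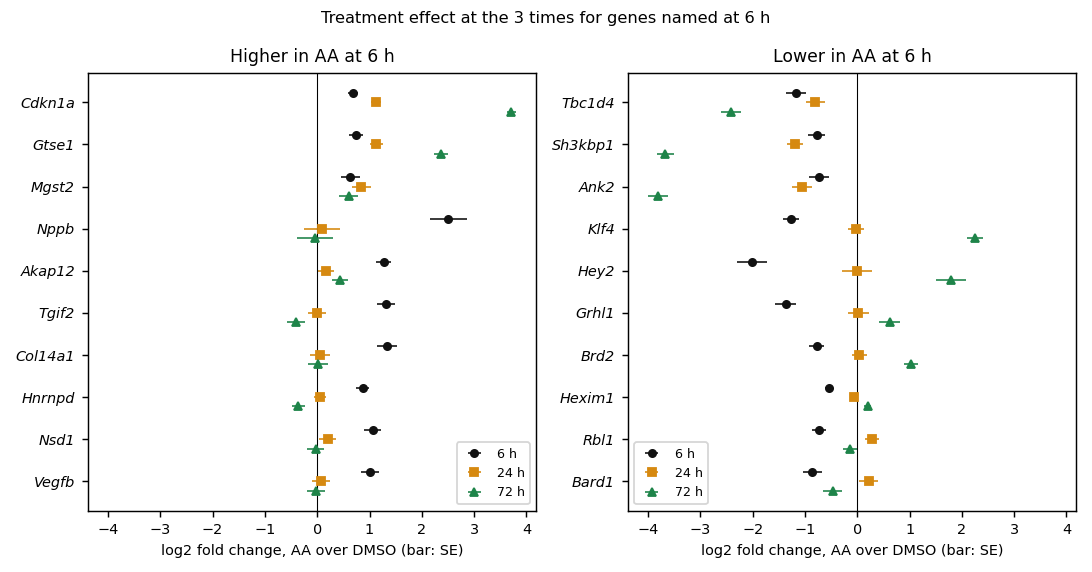
Log2 fold change of AA over DMSO (x axis, bars are SE) at 6 h (black), 24 h (orange) and 72 h (green) for 10 genes that rose and 10 that fell at 6 h. The first 3 genes of each panel keep their side at the 3 times, while for the others the 24 h value lies close to 0. Nppb and Hey2 were at the floor in both groups at 24 h. Klf4, Hey2, Grhl1 and Brd2 lie above 0 at 72 h.

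Of the 7 lasting fallers 6 were long genes, but a fall at 72 h was part of how they were chosen. Long genes had the lowest median changes at 72 h (given below), so that choice itself favours them. The span of the 7 from start to end in the annotation ran from 77.6 kb (Taf1b) to 786 kb (Arhgap26), and 6 exceeded 100 kb. Of the 10 lasting risers, which ran from 1.21 to 223 kb, 3 did. Of 8984 tested genes with a span, 985 lay between 100 and 300 kb and 181 above 300 kb. The median span of all tested genes was 24.3 kb, that of the early rises 17.95 kb and that of the early falls 33.9 kb. Under 10 kb, 16.0% of 2161 genes rose and 7.22% fell at 6 h, and between 30 and 100 kb 9.30% of 2657 rose and 17.1% fell. Between 100 and 300 kb the shares were 10.7% and 14.6% of 985, and above 300 kb 4.42% and 9.94% of 181. The median change went from 0.07 in the shortest class to -0.04 between 100 and 300 kb and 0.00 (-0.003) above 300 kb, so it did not keep falling with span. At 72 h the same medians were 0.09, -0.31 and -1.60. Without AA replicate 3 the counts under 10 kb were 117 rises and 58 falls in place of 346 and 156, and between 30 and 100 kb 104 and 222 in place of 247 and 454; after centring these were 508 and 80, and 380 and 274.

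**Figure D5:**
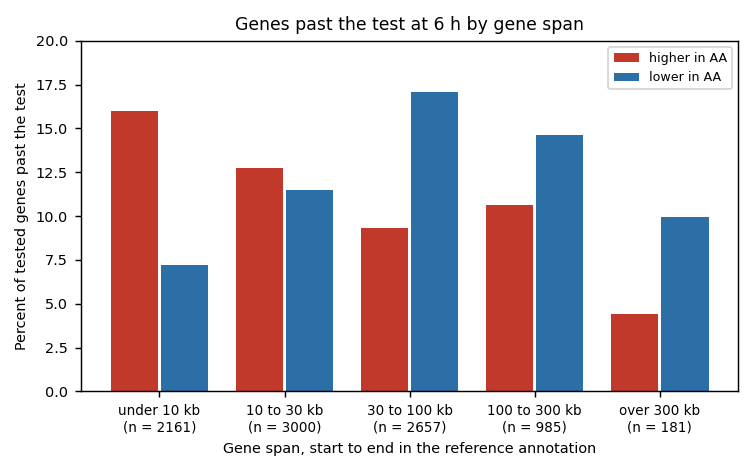
Percent of tested genes that rose (red) or fell (blue) at 6 h by gene span, in 5 classes with the number of genes under each. The share of rises is highest, at 16.0%, under 10 kb, and the share of falls is highest, at 17.1%, between 30 and 100 kb.

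Second probe sets gave a further reading on the same arrays. Of 283 risers with another probe set that passed the filter, 85.2% had it on the same side, 93 past the test and 3 past it on the opposite side. Of 426 fallers the share was 89.2%, with 141 past the test and 6 past it on the opposite side. Their median change was 0.34 and -0.30, beside 0.41 and -0.43 for the first probe sets. Among genes described above, Srsf10 gave -0.40 (adjusted p = 0.0316), Tbc1d4 -1.80 (0.0003), Src 0.70 (0.0012) and Dhx58 0.83 (0.0023) on theirs. Second probe sets that kept the side and missed the test were those of Tra2a (-0.31, adjusted p = 0.109), Med13 (-0.62, 0.102), Mitf (-0.76, 0.0826), Rnf168 (-0.43, 0.0523) and Sh3kbp1 (-0.54, 0.159). Of the lasting risers, Notch1 and Map3k20 had a second probe set on the opposite side, at -0.20 and -0.05 (adjusted p = 0.446 and 0.853), and that of Chd2 gave 0.23 (0.646).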

How the data were processed

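Total RNA of 18 cultures was extracted with Trizol, turned into biotinylated cRNA and read on Affymetrix rat arrays (labels' protocols). The deposited values are log2 expression, 1 per probe set and array, made by the authors with GCRMA per the submitters' processing notes; the sources used here do not give its version or settings. GCRMA places weak probe sets near log2 2, so a group mean under log2 4 lies near the floor. The number of arrays limits the precision.

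Of 31099 probe sets, 57 were controls, 20826 had 1 platform symbol, 436 several and 9780 none; 20758 were matched to RefSeq names (GRCr8), giving 14217 genes, each by the probe set with the highest mean over 18 arrays. A gene was tested if at least 3 arrays read log2 4 or higher. Group means (6) were fitted over all 18 arrays in R 4.3.3 with limma 3.58.1 (intensity trend, 12 residual and 7.27 prior degrees of freedom, Benjamini-Hochberg adjustment, adjusted p under 0.05), with the contrasts AA minus DMSO at each time and their difference between 24 h and 6 h. The gene lists and the genes named were chosen with earlier results of these data known, so nothing here is independent of them. Named were the 15 largest changes each way with arrays apart and the lower group at log2 4 or more, the 5 largest each way at any level, 4 called members of each list with 3 or more, the 5 largest differences between times each way, and a set of stress and marker genes whatever their test. One gene of that set is not reported here. Lists are described by counts and medians, without a test. Tables were made with Python 3.11.15, pandas and numpy. On simulated data built from these means and spreads, among 9015 genes, 61.2% of 67 changes of log2 0.5 at 6 h were recovered, 97.0% of 67 changes of 1 and 100% of 66 changes of 2, and 3.37% of calls were false. The simulated noise was normal and independent, with the same spread for a gene in every group, and few genes were changed. It held no outlying array and no shift of array medians, so its false share does not measure that among the calls reported here. The alternatives were other normalizations, filters, probe set rules, variance models, thresholds and arrays left out.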

Additional observations from a re-analysis of the deposited data

Results flagged for a closer look

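For 33 genes named here the effect of AA at 24 h differed from that at 6 h by the test of the difference itself (limma, adjusted p under 0.05), given as the 24 h effect minus the 6 h effect on the log2 scale. Among genes with a positive 6 h effect the difference was -2.46 for Veph1, -2.42 for Nppb, -1.59 for Gys1, -1.46 for Dact2, -1.4 for Robo2, -1.32 for Tgif2, -1.26 for Col14a1, -1.1 for Akap12, -0.94 for Vegfb, -0.87 for Nsd1, -0.82 for Hnrnpd and -0.8 for Hdac8. Robo2, an axon guidance receptor, had not passed at 6 h (0.37) and was at -1.03 at 24 h. Among genes with a negative 6 h effect it was 2.15 for Arg2, 2.02 for Hey2, 1.73 for Depdc7, 1.71 for Nr4a3, 1.69 for Ypel1, 1.57 for Plag1, 1.39 for Grhl1, 1.35 for Cpm and 1.24 for Klf4. It was 1.08 for Bard1, 1.01 for Rbl1, 0.91 for Rnf168, 0.89 for Cirbp and 0.82 for Brd2. For Cry2 it was 0.7, for Gadd45b 0.49, for Taf1d and Hexim1 0.48 and for Btg1 0.4. At 24 h Nppb, Hey2, Arg2 and Nr4a3 lay at the floor in both groups, with means between 1.96 and 2.83. Their 24 h effects therefore compare floor values. In Rad51ap1, a recombination cofactor, and Ddias, a DNA damage-induced apoptosis suppressor, the differences of 1.6 and 1.58 came with effects of 1.17 and 1.22 at 24 h and of -0.43 and -0.36 at 6 h, where neither had passed.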

How the results depend on the processing

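The naming rules picked 234 called genes, not all of them described above. None of these changed sign under any alternative that kept 1 value per gene. The fit of every probe set was not part of this check. In it, second probe sets of Smad5 and Tnrc6a, genes called as falls, passed as rises (0.37 and 0.54, adjusted p = 0.0048 and 0.0055). Leaving out arrays could not turn the sign where the groups did not overlap. Of the 234, 50 kept their call in every alternative of this check. In at least 1 fit that left out 1 array of 6 h, 120 lost it. Of these, 110 lost it without AA replicate 3, 73 without DMSO replicate 3 and 54 without DMSO replicate 2. The main fit gave 2211 calls at 6 h (1091 higher, 1120 lower) and 219 differences between 24 h and 6 h. Fitting the 6 h arrays alone gave 579 calls (293 and 286), with fewer residual degrees of freedom and only the spread of those arrays. Which of these lowered the count was not tested. An adjusted p under 0.01 gave 931 (451 and 480) and 5 differences, and a fold of at least 1.5 gave 587 (267 and 320). Testing every probe set gave 3482, with 1918 lower. Centring gave 1652 higher and 642 lower. The differences numbered 78 without a filter, 138 without the intensity trend and 1172 with array weights; the cause was not tested. Leaving out 1 array of 6 h gave 900 to 2537 calls, 422 to 1344 higher, 478 to 1193 lower, and 32 to 458 differences. Leaving out replicate 3 of both groups, chosen after seeing the data, gave 587 calls (243 and 344) and 72 differences. The labels do not say whether arrays of the same number were run together. Deviations of same-numbered arrays at 6 h correlated at -0.01, 0.16 and 0.01, which cannot decide this with 3 arrays per group. With the replicate block there were 2077 calls (999 and 1078) and 174 differences. Other filters, quantile normalization, probe set means and robust moderation left the 6 h counts within 1.5 times. Weak signals near the floor limit what can be said of low genes.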
